A study of Mus musculus with 16 samples.

Results

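The comparison concerns 6 of the 16 libraries of the series, the 3 titled Day4_WTCM and the 3 titled Day2_WTCM, which were chosen by their titles and were compared over all genes. The series asks how Apc-mutant cells act on their neighbours in the gut epithelium. RNA was taken from intestinal organoids, epithelial cultures raised from crypts in Matrigel with EGF, R-spondin and Noggin. All 6 libraries carry the labels genotype WT, strain C57BL6 and treatment with Apc-mutant conditioned medium, that is, medium collected from other organoid cultures, and the groups differ in their label for culture time, 2 or 4 days. Per the labels' protocols the crypts came from mice with an Lgr5-EGFP-IRES-CreERT2 allele, and wild type organoids were marked with mCherry from the LeGO-C2 vector. The 6 libraries titled APCCM, with the genotype label Apc mutant (Apcfl/fl recombined in culture with 4OH-tamoxifen and marked with Venus) and the same treatment and times, served as the closest comparison. The age and number of the mice are not stated in the labels.

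What limits these groups has to be read with every value. The protocols describe conditioned medium from wild type and from Apc-/- cultures, so the letters WTCM may name the organoid or the source of its medium. Notum, a Wnt target that is high without Apc, stood at 321 to 392 CPM (a gene's counts per 1000000 counts in genes) in the untreated Apc-mutant libraries, at 0.278 to 0.723 CPM in the libraries labelled APCCM and at 0.128 to 0.925 CPM in the WTCM libraries. In the same order Nkd1 stood at 547 to 668, 1.11 to 2.08 and 3.11 to 4.41 CPM. Axin2 stood at 836 to 975, 164 to 270 and 255 to 337 CPM. Lgr5 stood at 327 to 343, 89.8 to 109 and 129 to 157 CPM, and Apc itself at 273 to 310, 242 to 267 and 224 to 250 CPM. In the 2 untreated wild type libraries Notum stood at 0.240 to 0.367 CPM and Nkd1 at 1.44 to 2.02 CPM. Axin2 stood there at 172 to 196 CPM, Lgr5 at 151 to 167 CPM and Apc at 77.7 to 83.8 CPM. The 4 untreated libraries were of another RNA content than the 12 with conditioned medium. Their histone genes summed to 50.5 to 53.2 CPM against 3976 to 5711 CPM, and protein-coding genes held 97.4 to 97.8% of their counts against 82.3 to 87.4%, so that levels set across the 2 kinds are rough. The APCCM libraries are called by their label only. The titles of the 2 days are written in different formats, and each day may be its own set of libraries, so that culture time and library set cannot be told apart. Nothing states that replicates came from separate cultures, and p-values then measure the spread between these libraries, which may be technical.

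The intestinal epithelium is renewed from stem cells at the crypt base, which are held by Wnt and Notch signals and give rise to absorptive enterocytes and to secretory goblet, Paneth, enteroendocrine and tuft cells. In an organoid this order is rebuilt around a closed lumen, so that cells are shed inwards and the culture grows denser until it is passaged. NF-kB, a family of transcription factors held in the cytoplasm by inhibitors such as the product of Nfkbia, and HIF, the factor stabilised when oxygen is low, are routes by which this epithelium answers its surroundings.

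The 6 libraries held 20489707 to 29152692 counts in genes, with 20234 to 21116 genes detected in each. The first principal component of the 6 carried 49.6% of the variance and separated the days. Measures of the libraries themselves also separated them. The single locus Gm26917 held 9.94 to 11.5% of the counts on day 2 and 8.25 to 8.88% on day 4, and mitochondrial genes summed to 22344 to 25238 and 27875 to 32014 CPM. The part of these shifts in the gene changes was not tested. Day 4 replicate 1 stood apart from the rest. Of its reads 33.3% had several alignments, and its counts differed from those of the other day 4 libraries with a chi-square per degree of freedom of 39.9 and 42.2, against at most 6.08 for any other pair within a group. Counts of the mitochondrial ribosomal RNA genes and of Lars2 were high in it. Lars2 stood at 3066 CPM there and at 120 to 437 CPM in the other 5 libraries, and the calls of Lars2, mt-Rnr1 and mt-Rnr2 were lost without it (log2 fold changes of 0.15, 0.53 and 0.40). The epithelial markers summed to 5837 to 6034 CPM on day 2 and 5699 to 6005 CPM on day 4. The fibroblast markers summed to 0.896 to 1.22 and 1.30 to 1.70 CPM, the immune markers to 3.71 to 4.29 and 2.82 to 3.56 CPM, and the endothelial and neural markers to 1.92 to 2.86 and 3.36 to 4.67 CPM. Among the markers at 0 counts in all 6 were Dcn, Col3a1, Col1a2, Thy1 and Lum, Cd4 and Cd8a, and Cdh5 and Kdr. Others were detected at low levels. The neural marker Tubb3 stood at 1.12 to 1.905 CPM on day 2 and 2.71 to 3.699 CPM on day 4, and was called higher (log2 fold change 1.198). The immune marker Itgam was called lower (-0.592), a call lost without any one of the 6 libraries. Pdgfrb, Cd68 and Pecam1 were tested and not called.

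Between day 2 and day 4, 4696 of the 14970 genes tested (31.4%) passed an adjusted p of 0.05 in the quasi-likelihood test of edgeR, adjusted by Benjamini-Hochberg over all genes tested. Of these, 2437 were higher on day 4 (16.3%) and 2259 were lower (15.1%). Each list count below is to be read against these shares of all genes. The changes were small in size, with a median of 0.30 among the calls on the log2 scale, and 357 genes (2.38%) passed at 2-fold or more, 209 of them higher (1.4%) and 148 lower (0.989%). The 3 day 4 libraries did not overlap the 3 day 2 libraries in 6293 genes (42%), and in 4267 of the 4696 calls (90.9%). The median log2 fold change of all genes tested was 0.01. Counts fell to 3615 to 4155 when any of the 6 libraries was left out, and no gene called in both fits was called in the opposite direction. RNA of a cell type can be lower in a bulk library through fewer such cells or through less RNA per cell, and these cannot be told apart here.

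**Figure D1:**
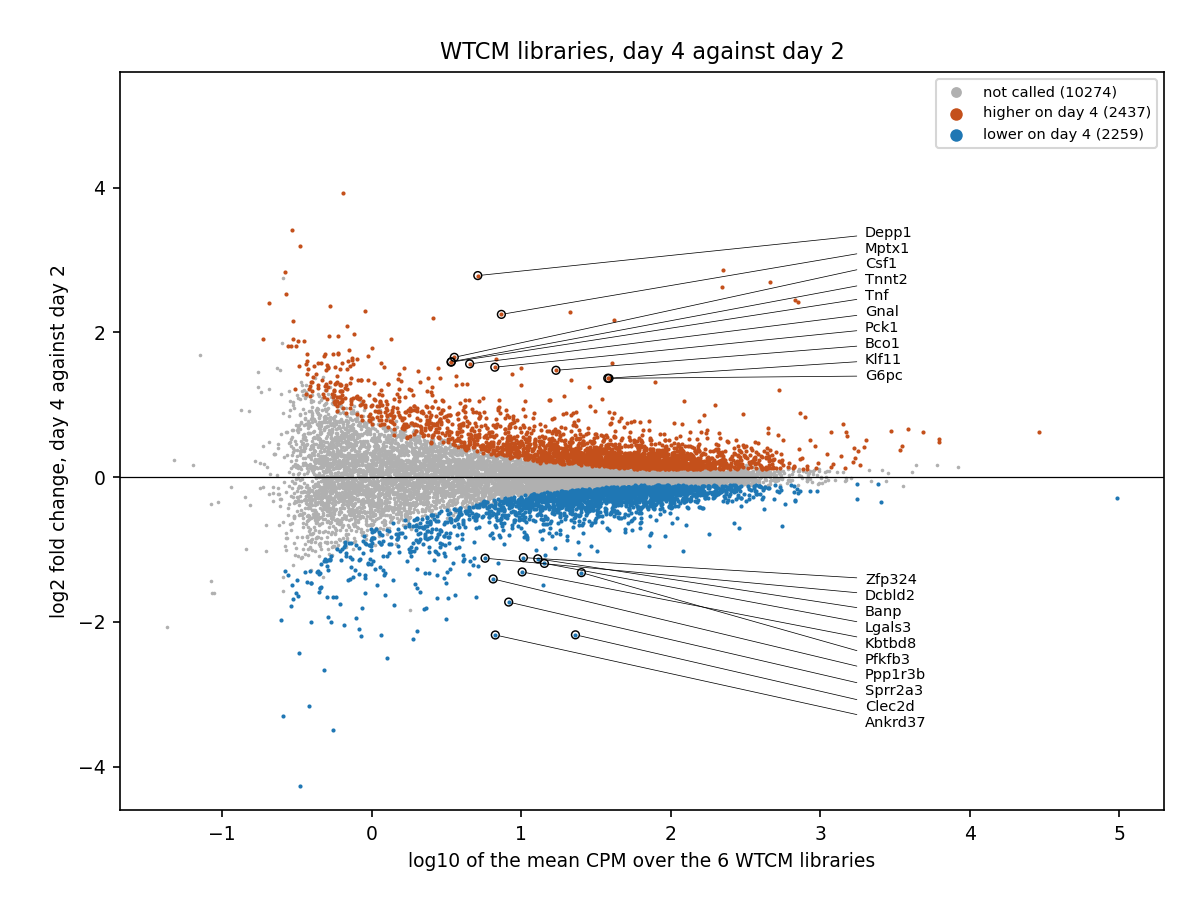
Log2 fold change of day 4 against day 2 in the WTCM libraries (y axis) against the log10 of the mean CPM over the 6 libraries (x axis), with 1 point for each of the 14970 genes. Orange points are the 2437 genes called higher, blue points the 2259 called lower, and circles mark the 10 highest and 10 lowest protein-coding genes of adequate level, from Depp1 at 2.79 to Ankrd37 at -2.18.

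The protein-coding genes that rose most, among those above 5 CPM in the higher group with no overlap between days, were Depp1, Mptx1, Csf1, Tnnt2, Tnf, Gnal, Pck1, Bco1, Klf11 and G6pc. The lack of overlap in these 10 genes and in the 10 that fell most was part of their choice. Depp1 (ENSMUSG00000048489, GRCm38 chr6:116650609-116652794) is a target of FOXO factors. It stood at 1.19, 1.42 and 1.38 CPM on day 2 and at 8.91, 8.26 and 9.60 CPM on day 4. All 3 day 4 libraries were far above the day 2 libraries, and the log2 fold change was 2.79 (SE 0.15, adjusted p = 5.02e-12), or 6.90-fold. Mptx1, which encodes a mucosal pentraxin, went from 2.60, 2.93 and 2.29 CPM to 14.2, 11.5 and 10.7 CPM, a log2 fold change of 2.25 (SE 0.16). G6pc and Pck1 encode enzymes of gluconeogenesis. G6pc stood at 19.8, 22.6 and 23.9 CPM on day 2 and at 53.6, 49.1 and 63.0 CPM on day 4, and Pck1 at 3.41, 2.93 and 4.24 against 7.54, 10.6 and 11.2 CPM. Their log2 fold changes were 1.37 (SE 0.09) and 1.52 (SE 0.14). Bco1, which cleaves beta-carotene to retinal, rose from 8.25 to 10.6 CPM to 21.9 to 28.8 CPM (log2 fold change 1.48, SE 0.12). Txnip, a glucose-responsive thioredoxin-binding protein that was picked after its values were seen, rose from 483, 541 and 541 CPM to 929, 1005 and 897 CPM, a log2 fold change of 0.89 (SE 0.05, adjusted p = 2.47e-12).

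The genes that fell most by the same rule were Ankrd37, Clec2d, Sprr2a3, Ppp1r3b, Pfkfb3, Kbtbd8, Lgals3, Banp, Dcbld2 and Zfp324. Clec2d, a C-type lectin, stood at 36.2, 41.5 and 36.3 CPM on day 2 and at 7.15, 8.77 and 8.47 CPM on day 4. No day 4 library came near the day 2 level, and the log2 fold change was -2.18 (SE 0.09, adjusted p = 8.09e-14). Sprr2a3, of a cornified envelope family with near-identical copies that make its count uncertain, stood at 10.8 to 14.9 CPM on day 2 and went down to 2.47 CPM in day 4 replicate 3 (log2 fold change -1.73, SE 0.19). Lgals3, encoding galectin-3, went from 24.6, 18.99 and 16.6 CPM to 8.18, 8.14 and 9.36 CPM (log2 fold change -1.19, SE 0.11). Banp was 23.4 CPM in day 2 replicate 1 and 13.9 to 16.2 CPM in the other day 2 libraries, against 6.91 to 9.004 CPM on day 4.

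Genes of the NF-kB route and chemokines rose together. Of the 12 listed members tested, 10 were higher on day 4 and 0 lower, with a median log2 fold change of 0.62, and the 2 not called were Ccl28 and Icam1. The 250 bases ahead of the start sites of Nfkbia and Ccl20 are shown because both genes rose at least 2-fold and both hold a kappaB-like motif, GGG, any 2 bases and TTTCC, read on either strand and marked in capitals (RefSeq, GRCm38.p6, 5′ to 3′ on the gene's strand; Nfkbia chr12:55492648-55492897, minus strand; Ccl20 chr1:83116516-83116765, plus strand).
Nfkbia: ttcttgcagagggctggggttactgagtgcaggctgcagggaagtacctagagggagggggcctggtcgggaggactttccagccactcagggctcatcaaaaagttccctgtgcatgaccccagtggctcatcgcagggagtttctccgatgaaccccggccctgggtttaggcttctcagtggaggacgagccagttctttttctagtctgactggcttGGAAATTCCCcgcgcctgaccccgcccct
Ccl20: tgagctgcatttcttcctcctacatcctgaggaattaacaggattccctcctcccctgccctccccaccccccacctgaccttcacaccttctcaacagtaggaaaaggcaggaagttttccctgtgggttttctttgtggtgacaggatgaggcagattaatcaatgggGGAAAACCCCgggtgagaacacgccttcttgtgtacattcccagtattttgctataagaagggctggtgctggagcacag
The match starts 29 bases ahead of the start in Nfkbia and 80 bases ahead in Ccl20. It occurred in 6 of the 12 list members with a promoter entry and in 7 of their 16 windows (43.8%), against 464 of all 32851 windows of the same length (1.41%). Cxcl1, near the detection limit on day 2, is 1 of these 6 members, and its window is not shown. Tnf, which also rose at least 2-fold, is not 1 of them. A match is a description of the letters, not of a bound site. The list was chosen for the NF-kB route, so its share of matches does not bear on the change between days.

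Among the inhibitors that NF-kB induces, Nfkbia, encoding IkB-alpha, stood at 46.4, 44.4 and 47.3 CPM on day 2 and at 116, 108 and 111 CPM on day 4. The 2 sets of 3 lay far apart, and the log2 fold change was 1.32 (SE 0.06, adjusted p = 2.21e-13). Tnfaip3, encoding the deubiquitinase A20, went from 22.7, 21.3 and 21.7 CPM to 45.9, 39.5 and 35.5 CPM (0.91, SE 0.08). Of the transcription factor subunits, Relb rose by 0.57 (SE 0.07) and Nfkb2 by 0.51 (SE 0.07) on the log2 scale. Of the ligands, Tnf went from 1.79, 1.66 and 1.67 CPM to 5.65, 5.64 and 3.98 CPM. The lowest day 4 value, in replicate 3, was still above every day 2 value, and the log2 fold change was 1.59 (SE 0.18, adjusted p = 5.53e-07). Ccl20, the chemokine that draws CCR6-bearing lymphocytes, stood at 7.42, 6.39 and 7.19 CPM on day 2 and at 14.9, 14.8 and 12.9 CPM on day 4 (log2 fold change 1.05, SE 0.11, adjusted p = 1.63e-07). Csf1, the macrophage growth factor, rose from 1.49, 1.51 and 2.24 CPM to 5.74, 5.64 and 4.80 CPM (1.66, SE 0.20). Cxcl16 rose by 0.67 (SE 0.08) and Ccl25, the small intestinal homing chemokine, by 0.44 (SE 0.04). Cxcl1 was near the detection limit on day 2, at 0.0426 to 0.0976 CPM, and at 0.487 to 0.720 CPM on day 4. No fold is given for it. Birc3 was also called, at 0.28 (SE 0.06). Edn1, encoding endothelin-1 and picked after its values were seen, went from 5.25, 5.51 and 7.14 CPM to 14.1, 15.04 and 12.9 CPM.

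The epithelial defence list gave 7 higher and 0 lower of 9 tested, with a median of 0.45. Reg3g and Reg3b encode antibacterial lectins. Reg3g stood at 134, 138 and 131 CPM on day 2 and at 260.5, 253 and 272 CPM on day 4 (log2 fold change 1.00, SE 0.06, adjusted p = 6.58e-11), and Reg3b rose by 0.99 (SE 0.09). Pigr, the receptor that carries IgA across the epithelium, rose from 2943 to 3106 CPM to 3720.0 to 3873 CPM (0.37, SE 0.03). Nos2, the inducible nitric oxide synthase, stood at 6.91, 8.25 and 9.71 CPM on day 2 and at 12.5, 11.7 and 9.26 CPM on day 4. The days overlapped, and the adjusted p of 0.0115 rose to 0.0837 without day 2 replicate 1 and to 0.0618 without day 4 replicate 1. Of 8 MHC and antigen processing genes 5 were higher and 0 lower, among them Tapbp (0.38, SE 0.05) and Tap2 (0.42, SE 0.10), and 3 were higher with RLE scaling, with all 16 libraries in the fit, with protein-coding genes alone, or without any one of the day 2 libraries or day 4 replicate 1. The interferon-stimulated genes gave 3 higher and 2 lower of 18, with a median of 0.01. Stat2, a subunit of the interferon-responsive factor ISGF3, fell by 0.63 on the log2 scale (SE 0.08). Isg15 was at 0 to 0.127 CPM in all 6 libraries. Without day 4 replicate 1, and also without day 2 replicate 3, the interferon counts were 0 higher and 1 lower, and without day 2 replicate 1 or day 4 replicate 3 they were 1 and 2.

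Most genes induced by low oxygen moved the other way. Of 13 hypoxia response genes tested 10 were lower and 1 was higher, with a median log2 fold change of -0.51. The windows ahead of Ankrd37 and Egln3 are shown as 2 examples of members that fell by at least 2-fold. Both hold the core of the hypoxia response element, ACGTG or GCGTG on either strand, in capitals (RefSeq, GRCm38.p6, 5′ to 3′ on the gene's strand; Ankrd37 chr8:45999851-46000100, minus strand; Egln3 chr12:54203875-54204124, minus strand). Pfkfb3 also fell by at least 2-fold and holds the core, and its window is not shown.
Ankrd37: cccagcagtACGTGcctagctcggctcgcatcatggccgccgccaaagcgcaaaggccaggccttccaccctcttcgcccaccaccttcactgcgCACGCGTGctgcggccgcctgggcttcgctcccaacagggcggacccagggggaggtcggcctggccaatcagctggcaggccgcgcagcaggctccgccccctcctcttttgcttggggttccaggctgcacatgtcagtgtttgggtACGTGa
Egln3: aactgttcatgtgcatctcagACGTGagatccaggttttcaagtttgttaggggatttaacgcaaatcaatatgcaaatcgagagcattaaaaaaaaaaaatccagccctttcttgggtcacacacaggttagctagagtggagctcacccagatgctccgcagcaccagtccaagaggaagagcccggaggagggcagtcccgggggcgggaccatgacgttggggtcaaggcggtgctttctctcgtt
Ankrd37 holds 4 matches, the first bases of which lie 241, 155, 152 and 6 bases ahead of the start, and 2 of them overlap. Egln3 holds 1, at 229 bases. The core is a common run of letters. It was present for 12 of the 12 members with a promoter entry and in 13 of their 17 windows (76.5%), and in 12679 of all 32851 windows (38.6%). This list too was chosen for its route, and its share of matches does not bear on the change between days.

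Ankrd37, an ankyrin repeat gene induced by HIF-1, stood at 11.3, 10.2 and 11.6 CPM on day 2 and at 2.00, 2.58 and 2.50 CPM on day 4. All 3 day 4 libraries were far below all 3 of day 2, and the log2 fold change was -2.18 (SE 0.14, adjusted p = 1.09e-10), or 4.54-fold lower. Egln3, the oxygen-sensing prolyl hydroxylase PHD3, went from 43.6, 44.1 and 42.1 CPM to 20.4, 22.7 and 19.7 CPM (-1.02, SE 0.06, adjusted p = 1.39e-10). Pfkfb3, whose product makes the activator of phosphofructokinase, went from 35.2, 36.4 and 37.5 CPM to 14.8, 13.8 and 14.03 CPM (-1.32, SE 0.07). Egln3, like the other two, was lower in every day 4 library. Slc2a1, the glucose transporter GLUT1, fell by 0.51 (SE 0.07), the collagen hydroxylase gene P4ha1 by 0.71 (SE 0.10), the histone demethylase gene Kdm3a by 0.33 (SE 0.04) and the carbonic anhydrase gene Car9 by 0.32 (SE 0.07) on the log2 scale. Vegfa, the vascular growth factor, stood at 89.8, 95.6 and 99.7 CPM on day 2 and at 88.4, 95.2 and 88.8 CPM on day 4, and did not pass (adjusted p = 0.68). Ndrg1 was the member called higher, at 0.21 (SE 0.05). The glycolysis list gave 0 higher and 8 lower of 12, with a median of -0.22. Aldoa, fructose-bisphosphate aldolase, stood at 745, 742 and 797 CPM on day 2 and at 552, 646 and 596 CPM on day 4 (-0.31, SE 0.04), with no overlap. Pgk1 fell by 0.32 (SE 0.06) and Hk2, hexokinase 2, by 0.27 (SE 0.06). Gapdh has many near-identical copies, so that its low count of 30.7 to 34.7 CPM on day 2 and its fall by 1.06 are uncertain.

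**Figure D2:**
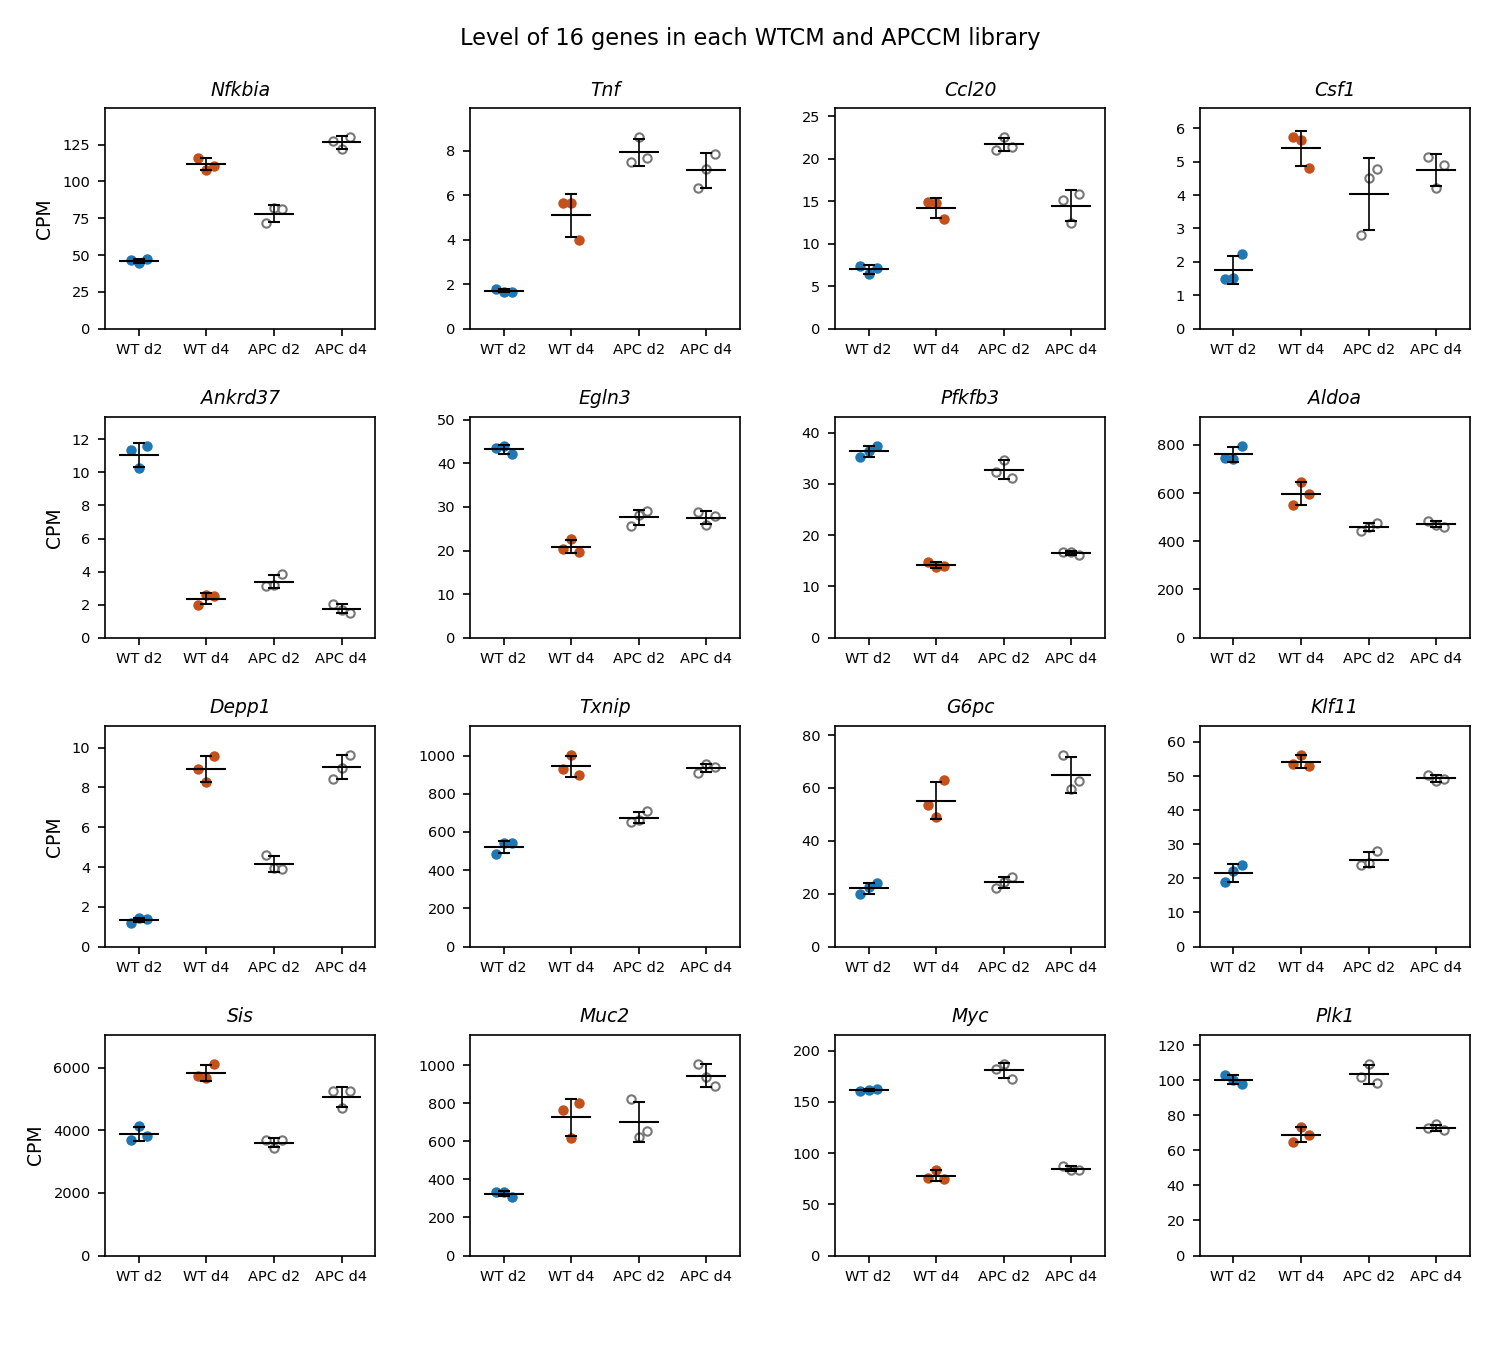
CPM of 16 genes (y axes, each starting at 0) in each library of the 4 groups, WTCM day 2, WTCM day 4, APCCM day 2 and APCCM day 4 (x axis), with points for libraries (open for APCCM), horizontal lines for the mean of n = 3 and whiskers for the SD. Nfkbia, Tnf, Ccl20 and Csf1 were higher in all 3 WTCM libraries of day 4 than in any of day 2, and Ankrd37, Egln3, Pfkfb3 and Aldoa were lower in all 3.

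Most markers of the absorptive lineage rose. Of 22 enterocyte genes 17 were higher and 1 was lower, with a median of 0.33. Sis, the brush border sucrase-isomaltase, stood at 3696, 4125 and 3819.8 CPM on day 2 and at 5727, 5657 and 6127 CPM on day 4 (0.63, SE 0.05, adjusted p = 1.01e-09). Every day 4 library was above every day 2 library. The glucose transporter gene Slc5a1 rose by 0.62 (SE 0.06) and Alpi, intestinal alkaline phosphatase, by 0.26 (SE 0.06). The 11 villus tip genes were split, 6 higher and 4 lower. Apoa4, an apolipoprotein of lipid-absorbing cells, went from 411, 446 and 411 CPM to 603, 612 and 635 CPM (0.58, SE 0.06), while Egfr fell by 0.37 (SE 0.04) and the adenosine deaminase gene Ada by 0.53 (SE 0.09). In lipid metabolism, 9 of 16 fatty acid oxidation and ketogenesis genes were higher and 1 was lower, among them Hadh (0.25, SE 0.04), a dehydrogenase of mitochondrial fatty acid oxidation. Of 12 fatty acid synthesis genes 0 were higher and 10 lower, or 6 without day 4 replicate 1. The desaturase gene Scd1 went from 230.1, 232 and 230.1 CPM to 103, 138 and 151 CPM (-0.78, SE 0.08), with the lowest value in day 4 replicate 1. Cholesterol synthesis genes gave 4 higher and 12 lower of 23 (median -0.15). The higher ones included the feedback gene Insig1, at 0.32 (SE 0.05), and the lower ones Mvk, mevalonate kinase, at -0.36 (SE 0.06). The 4 higher calls became 2 without day 2 replicate 1, without day 4 replicate 3 or with all 16 libraries in the fit.

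Secretory lineages were also higher in most of their called members. Of 16 enteroendocrine genes 10 were higher and 0 lower, with a median of 0.55. Chgb and Chga encode granins of hormone granules. Chgb stood at 329, 353 and 368 CPM on day 2 and at 587, 531 and 519.6 CPM on day 4 (0.68, SE 0.06), and Chga rose by 0.66 (SE 0.07). Tph1, which starts serotonin synthesis, went from 14.2, 15.8 and 16.9 CPM to 30.1, 28.2 and 24.8 CPM (0.86, SE 0.08), and the incretin gene Gip rose by 0.56 (SE 0.08). Tuft cell genes gave 3 higher and 0 lower of 8, with Dclk1 at 0.56 (SE 0.14) and Pou2f3, their lineage factor, at 0.59 (SE 0.14). Goblet cell genes gave 5 higher and 1 lower of 11. Muc2, the gel-forming mucin, stood at 332, 332 and 310.3 CPM on day 2 and at 763, 618 and 803 CPM on day 4, and was higher in every day 4 library (1.20, SE 0.09, adjusted p = 2.1e-09). Fcgbp rose by 0.67 (SE 0.07) and the trefoil gene Tff3 by 0.45 (SE 0.07), and Clca1 fell by 0.49 (SE 0.09). Paneth cell genes gave 7 higher and 1 lower of 11 (median 0.38). Defa24, a defensin of a family with close copies and so uncertain, went from 1104, 1095 and 1078 CPM to 1844, 1684 and 1769 CPM, and the lectin gene Itln1 rose by 0.57 (SE 0.05). Lyz1, lysozyme, stood at 1351, 1342 and 1489 CPM on day 2 and at 1506, 1358 and 1425 CPM on day 4. Its days overlapped, with an adjusted p of 0.325, as did those of the matrix metalloproteinase gene Mmp7 (adjusted p = 0.42).

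In the lists of the crypt base and of its Wnt and Notch signals more genes were called lower than higher. Of 14 stem cell genes 1 was higher and 8 were lower, with a median of -0.19. Olfm4, a marker of these cells, stood at 2380.3, 2635 and 2622 CPM on day 2 and at 2599.9, 2724 and 2606 CPM on day 4 (adjusted p = 0.117). Lgr5, the R-spondin receptor, stood at 129, 157 and 154 against 154, 154 and 140.2 CPM (adjusted p = 0.384), and both genes overlapped between days. Ascl2, the stem cell factor, fell by 0.33 (SE 0.11, adjusted p = 0.0183), Sox9 by 0.41 (SE 0.05) and Cdca7 by 0.42 (SE 0.05). The stem cell gene called higher was Slc12a2, at 0.26 (SE 0.05). Of 18 Wnt/beta-catenin target genes 1 was higher and 6 were lower (median -0.04), and 4 were lower without day 2 replicate 1 or day 4 replicate 3. Axin2, the feedback scaffold, went from 309.8, 337 and 334 CPM to 261, 265 and 255 CPM (-0.29, SE 0.05), and Myc from 161, 162 and 163 CPM to 75.3, 83.9 and 74.4 CPM. Myc was lower in every day 4 library, with a log2 fold change of -1.02 (SE 0.05, adjusted p = 8.64e-13). Of 13 Notch pathway and secretory fate genes 0 were higher and 7 lower (median -0.31). Hes1, the Notch effector that holds cells to the absorptive fate, fell from 75.7, 75.4 and 77.8 CPM to 44.6, 50.8 and 48.8 CPM (-0.63, SE 0.04). Atoh1, the factor of the secretory fate, fell from 16.8, 19.1 and 17.999 CPM to 9.49, 9.24 and 10.3 CPM (-0.85, SE 0.09), and the ligand gene Jag1 by 0.56 (SE 0.08). BMP target genes gave 1 higher and 1 lower of 10. Fetal-like genes gave 0 higher and 3 lower of 8, with Areg, an EGF receptor ligand, at -0.58 (SE 0.08) and Ly6a at -0.99 (SE 0.21). The number lower was 6 without day 4 replicate 1. It was 2 with DESeq2, and 2 without day 2 replicate 1, day 2 replicate 2, day 4 replicate 2 or day 4 replicate 3. YAP targets gave 3 higher and 2 lower of 9, MAPK feedback genes 4 and 1 of 9, and immediate early genes 4 and 1 of 10, with Egr1 at 0.72 (SE 0.10), Zfp36 at 0.78 (SE 0.07) and Fos at -0.44 (SE 0.11).

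Genes of mitosis fell by modest amounts. All 14 genes of G2 and M phase tested were lower on day 4, with no overlap between days and a median of -0.31. Plk1, a mitotic kinase, stood at 103, 99.8 and 97.99 CPM on day 2 and at 64.8, 73.1 and 68.8 CPM on day 4 (-0.51, SE 0.05, adjusted p = 6.08e-08). Aurka fell by 0.53 (SE 0.06) and Cenpe, a kinetochore motor, by 0.47 (SE 0.04), while Mki67 fell by 0.21 (SE 0.04), from 716, 726 and 722 CPM to 595, 622 and 608 CPM. The S phase list gave 0 higher and 5 lower of 15, or 3 lower without day 4 replicate 3. Ccne2, cyclin E2, fell by 0.76 (SE 0.11) and Rrm2, a subunit of ribonucleotide reductase, by 0.32 (SE 0.06), while the replication clamp gene Pcna did not pass (adjusted p = 0.3). Of 60 replication-dependent histone genes, which have near-identical copies, 45 were lower and 2 higher (median -0.36). The 2 higher were the linker histone genes Hist1h1c and Hist1h1e, at 0.24 and 0.27. The number lower was 29 without day 2 replicate 1. All histone genes summed to 4964 to 5711 CPM on day 2 and 3976 to 4721 CPM on day 4. Of 16 ribosome biogenesis genes 0 were higher and 11 lower (median -0.21), with Nop2 at -0.39 (SE 0.05) and Rrp12 at -0.40 (SE 0.06). Of 83 cytoplasmic ribosomal protein genes 5 were higher and 5 lower, with a median of 0.02, and with a library left out the counts ranged from 0 to 6 higher and 2 to 6 lower.

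Stress routes were mostly lower among their called members. ATF4 and amino acid response genes gave 3 higher and 8 lower of 18, or 5 lower with all 16 libraries in the fit. Chac1, which degrades glutathione, went from 11.3, 8.69 and 10.5 CPM to 5.35, 5.17 and 5.15 CPM (-0.93, SE 0.12), and Ddit4, an inhibitor of mTORC1, from 98.7, 88.9 and 92.7 CPM to 49.7, 52.1 and 54.7 CPM (-0.80, SE 0.05). Neither overlapped between days. Atf4 did not pass (adjusted p = 0.32), nor did Asns (adjusted p = 0.671). Unfolded protein response genes gave 2 higher and 8 lower of 13, with the chaperone gene Hspa5 at -0.20 (SE 0.05), Creld2 at -0.51 (SE 0.08) and Herpud1 at 0.35 (SE 0.05). Heat shock genes gave 0 higher and 4 lower of 7, and 2 lower without day 2 replicate 1 or day 4 replicate 3. NRF2 genes gave 1 higher and 5 lower of 12, with the glutathione transferase gene Gstm1 at -0.44 (SE 0.07) and Gclc at -0.22 (SE 0.05). Of 3 aryl hydrocarbon receptor targets tested 1 was called, Cyp1a1, and this call was lost without day 2 replicate 1, day 4 replicate 1 or day 4 replicate 2. The p53 targets were split, 3 higher and 4 lower of 14. Bbc3, the proapoptotic gene of PUMA, rose by 0.81 (SE 0.09). Btg2, an antiproliferative gene, fell from 95.7, 96.3 and 93.9 CPM to 48.1, 46.7 and 49.8 CPM (-0.95, SE 0.04), and Cdkn1a, the cell cycle inhibitor p21, fell by 0.37 (SE 0.06). Of 14 clock genes 6 were higher and 2 lower. Nr1d1 (REV-ERB-alpha) rose by 0.81 (SE 0.06), Arntl (BMAL1) by 0.53 (SE 0.07) and Per1 by 0.41 (SE 0.06), and Cry1 fell by 0.52 (SE 0.07) and Per2 by 0.36 (SE 0.08). The hour of harvest is not given in the labels. Of 11 mitochondrial genome genes 4 were higher and 1 lower, with mt-Nd5 at 0.64 (SE 0.06), and of 74 nuclear oxidative phosphorylation genes 3 were higher and 6 lower, or 4 and 2 without day 4 replicate 1.

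**Figure D3:**
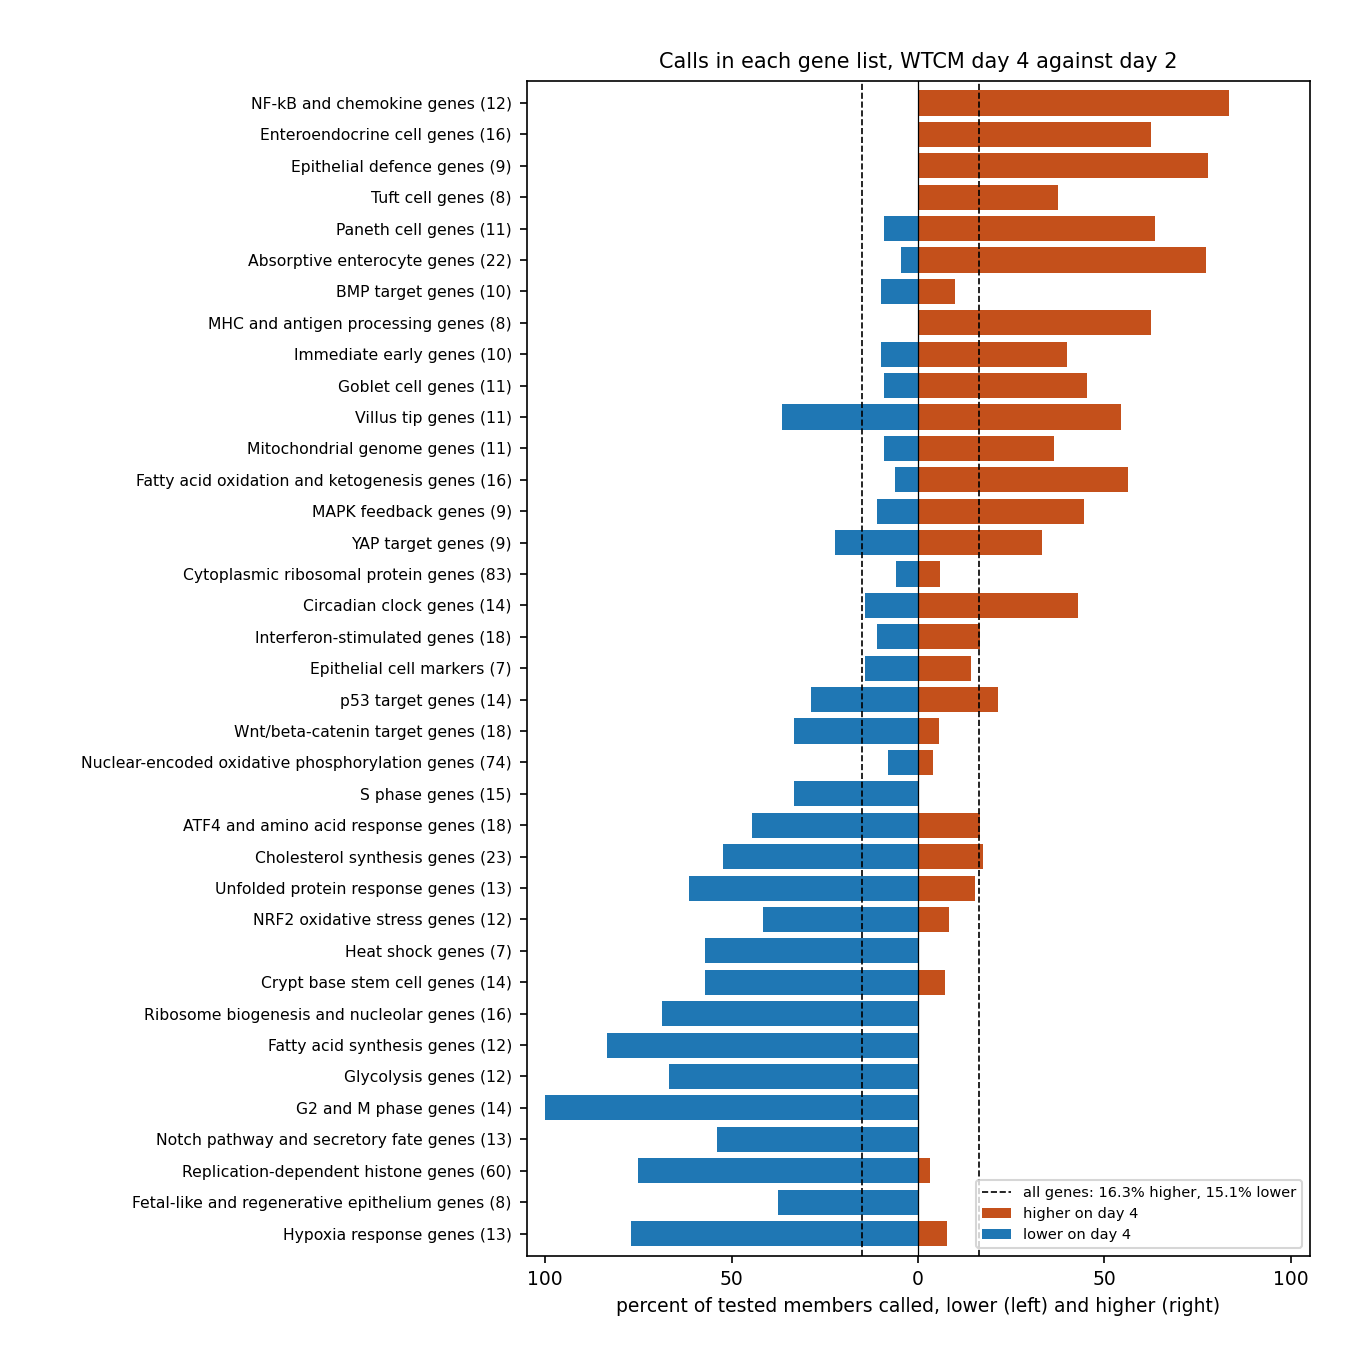
Percent of the tested members of each of 37 gene lists called higher (orange, to the right) and lower (blue, to the left) on day 4 in the WTCM libraries, with the dashed lines at the 16.3% and 15.1% of all genes called higher and lower. NF-kB, enterocyte and enteroendocrine lists reach far to the higher side, G2 and M phase, hypoxia, fatty acid synthesis and histone lists far to the lower side, and 4 lists with under 7 genes tested are left out.

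The same days were set against each other in the libraries labelled APCCM to see where the WTCM change differed. In APCCM libraries 4648 genes were called (31%), 2279 higher (15.2%) and 2369 lower (15.8%). In the same direction in both were 2713 genes, 57.8% of the WTCM calls and 58.4% of the APCCM calls, and 75 were called in opposite directions. The 2 comparisons share no library, but a difference between the library sets of the 2 days would be common to both. The difference of the day effects, in which a common difference cancels, was called for 568 genes (3.79%), 332 with the higher value in WTCM (2.22%) and 236 with the lower (1.58%).

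**Figure D4:**
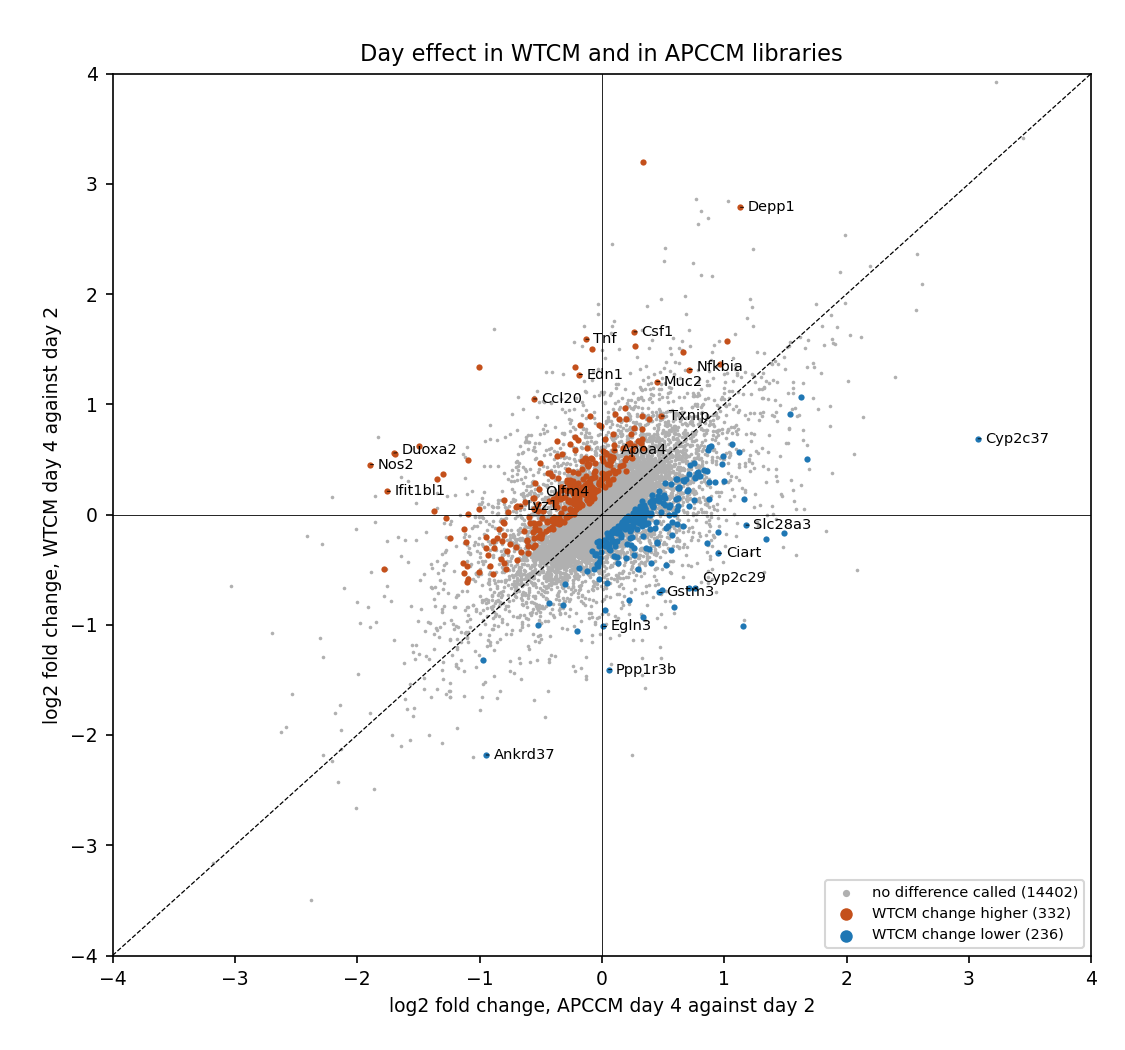
Log2 fold change of day 4 against day 2 in the WTCM libraries (y axis) and in the libraries labelled APCCM (x axis), 1 point per gene, with the dashed diagonal of equal change. Coloured points are the 568 genes whose day effects differed, 332 with the higher effect in WTCM (orange) and 236 with the lower (blue), and 2 genes lie outside the axes.

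Of the 12 NF-kB genes 8 had a day effect that differed, and in all 8 this effect was higher in WTCM. Ccl20 stood at 21.1, 22.6 and 21.4 CPM in APCCM on day 2 and at 15.2, 12.5 and 15.8 CPM on day 4, a fall by 0.56, against the rise by 1.05 in WTCM (difference 1.61, SE 0.14, adjusted p = 3.44e-07). The WTCM libraries of day 2 were below all others for this gene, and the day 4 libraries of both labels overlapped. Tnf in APCCM was 7.48, 8.62 and 7.64 CPM on day 2 and 6.31, 7.17 and 7.86 CPM on day 4 (adjusted p = 0.502), and the difference was 1.72 (SE 0.22). Nfkbia rose in both, by 0.71 in APCCM, and the difference was 0.60 (SE 0.08). The hypoxia list had 8 of 13 genes called with the lower value in WTCM, and the glycolysis list 6 of 12. Egln3 in APCCM stood at 25.7, 28.1 and 29.1 CPM on day 2 and at 28.8, 25.8 and 27.95 CPM on day 4. Its log2 fold change there was 0.01, and the difference was -1.03 (SE 0.09, adjusted p = 3.44e-07). Ankrd37 fell in both, by 0.95 in APCCM, and the difference was -1.24 (SE 0.23). Of the Paneth list 9 of 11 genes were called, all with the higher day effect in WTCM. Lyz1 in APCCM went from 2166, 2298 and 2247 CPM to 1495, 1271 and 1396 CPM, a fall by 0.67 (difference 0.75, SE 0.08). Of the stem cell list 6 of 14 were called, all with the higher day effect in WTCM, and Olfm4 fell in APCCM by 0.52 (difference 0.61, SE 0.06). All 14 genes of this list were called lower in APCCM (median -0.56), against 8 lower and 1 higher in WTCM (median -0.19). For the G2 and M phase and histone lists 0 genes were called, with 14 of 14 and 45 of 60 lower in WTCM and 11 and 34 lower in APCCM. Clec2d fell by 2.28 in APCCM and Myc by 1.07, with differences of 0.10 (SE 0.13) and 0.05 (SE 0.07) that did not pass. Of the 10 genes that rose most in WTCM, Mptx1, Tnnt2, Gnal, Pck1 and G6pc had no difference called. They rose in APCCM by 2.19, 1.88, 1.53, 1.51 and 1.44. The difference was called for Depp1, Csf1, Tnf, Bco1 and Klf11. Of the 10 genes that fell most, it was called for Ankrd37, Ppp1r3b and Pfkfb3 only.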

How the data were processed

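The authors deposited raw counts of reads per gene, whole numbers for 46078 genes and 5 summary lines in each library, and per the submitters' processing notes used Trimmomatic 0.36, HISAT2 2.1.0 and HTSeq 0.6.1p1 on GRCm38. Libraries were made from total RNA depleted of ribosomal RNA, per the labels' protocols, though the 4 untreated libraries differed in RNA content. Antisense pairs cannot be separated, since the sources used here do not give the strand setting. Reads with several alignments are in no gene. Summary lines were left out of all totals. GENCODE M21 gave symbols and positions for 98.2% of the genes.

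edgeR 4.0.16 (R 4.3.3) was used with its quasi-likelihood test, TMM factors of 0.945 to 1.03 and filterByExpr with a minimum count of 10. It was fitted to the 12 conditioned medium libraries in 4 groups of n = 3, with 8 residual degrees of freedom. The fit was also run on simulated counts with few genes changed, and that run does not bear on the calls made here. The SE of a log2 fold change is its size over the square root of F. CPM are counts per 1000000 counts in genes, without TMM. The 4 untreated libraries entered an alternative with all 16 only.

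The members and the 41 gene lists were chosen with earlier results of these data known. The text names the 10 highest and 10 lowest protein-coding genes with a mean of at least 5 CPM in the higher group and no overlap, up to 4 genes of lowest p and the first 2 of each list, and 5 genes a direction by the difference of the day effects. Txnip, Edn1, Gstm3, Lars2, mt-Rnr1, mt-Rnr2 and a few further list members were named after their values were seen. Alternatives were RLE and upper quartile scaling, no filter, DESeq2 1.42.0, protein-coding genes alone, all 16 or only 6 libraries, a replicate block and each library left out. Some genes of the lists are not reported here by name.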

Additional observations from a re-analysis of the deposited data

Results flagged for a closer look

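The day effect differed between the libraries labelled WTCM and APCCM, by a test of the difference itself in edgeR with Benjamini-Hochberg adjustment, for 568 genes. For the following genes the value given is that difference on the log2 scale, WTCM minus APCCM, each with an adjusted p under 0.05 over 14970 genes.

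The genes of this paragraph and the next had the higher day effect in WTCM. Nos2 differed by 2.34, as it stood at 68.7, 70.8 and 64.9 CPM in APCCM on day 2 and at 17.3, 15.7 and 21.2 CPM on day 4. Duoxa2, the partner of an epithelial NADPH oxidase, differed by 2.26 and Ifit1bl1, of a family with close copies, by 1.96. Both fell in APCCM and were not called in WTCM (adjusted p = 0.141 and 0.462). Tnf differed by 1.72, Ccl20 by 1.61, Edn1 by 1.45, Csf1 by 1.39 and Nfkbia by 0.60. On day 2 all 3 APCCM libraries were above all 3 WTCM libraries for Nos2, Tnf, Ccl20, Csf1, Nfkbia and Depp1. Depp1 differed by 1.65 and Txnip by 0.41.

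The crypt marker Olfm4 differed by 0.61, the Paneth gene Lyz1 by 0.75, the goblet gene Muc2 by 0.76 and the enterocyte gene Apoa4 by 0.49.

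The day effect was lower in WTCM for the hypoxia genes Ankrd37, at -1.24, and Egln3, at -1.03. On day 2 every WTCM library was above every APCCM library for both genes and for Ppp1r3b. The means of Ankrd37 were then 11.1 CPM in WTCM and 3.39 CPM in APCCM, and 2.36 and 1.75 CPM on day 4. Among genes of detoxification and transport, Gstm3 differed by -1.17, Cyp2c29 by -1.42, Cyp2c37 by -2.39 and the nucleoside carrier gene Slc28a3 by -1.27. Gstm3 stood at 397, 366 and 319 CPM on day 2 and at 188, 215 and 243 CPM on day 4 in WTCM, and rose by 0.47 in APCCM. Gstm and Cyp2c genes have close copies, which makes their counts uncertain. The clock gene Ciart differed by -1.30 and the glycogen targeting gene Ppp1r3b by -1.46.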

How the results depend on the processing

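The count of genes called between days in WTCM (4696) lay between 3980 and 4697 under the other scalings, filters, tools and sets of libraries, and between 3615 and 4155 with any library left out. The APCCM count (4648) lay between 3946 and 4667, and between 3849 and 4215 with a library left out. The count of differing day effects (568) moved to 351 with all 16 libraries in the fit, which tested 16510 genes. The cause was not tested. It was 550 to 757 under the other alternatives and 400 to 564 with a library left out. No gene called in an alternative was called in the opposite direction in the main result. Among the named genes in WTCM, 26 lost their call in at least 1 setting and 16 gained it, and none reversed. With the replicate number as a block the counts were 4685, 4645 and 584. The deviations of same-numbered WTCM libraries of the 2 days correlated at 0.0052, 0.011 and -0.0095. Pairs with different numbers gave -0.0471 to 0.0421. Whether the libraries are paired cannot be read from this, since the spread within a group may be technical.

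Day and library set cannot be told apart. List counts that moved by over 1.5 times mostly stand beside each list. The mitochondrial genome list gave 7 higher with no filter or with only the 6 libraries compared, the ribosomal protein list 9 lower with protein-coding genes alone, and other moves, such as those of the BMP and immune lists, were of 1 or 2 genes.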

Other observations

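Beyond the lists, Kruppel-like factor genes, which encode zinc finger regulators of epithelial growth and differentiation, were looked at after their values were seen. Of 13 tested, 6 were higher on day 4 in WTCM and 0 lower, with a median log2 fold change of 0.42. Klf11 stood at 18.8, 22.1 and 24.0 CPM on day 2 and at 53.6, 56.3 and 52.8 CPM on day 4 (1.37, SE 0.07). Klf10, an early gene of TGF-beta signals, went from 38.9, 41.6 and 41.6 CPM to 70.9, 73.1 and 58.2 CPM, and Klf6 from 61.2, 59.8 and 63.2 CPM to 81.7, 89.0 and 86.5 CPM. Neither overlapped between days. In APCCM Klf10 rose by 0.86, and Klf6 stood at a log2 fold change of 0.09 that did not pass (adjusted p = 0.132). Genes with Zfp symbols gave 38 higher and 63 lower of 317, with a median of -0.05. Of all genes tested 16.3% were higher and 15.1% lower.

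Of the 148 genes that fell by at least 2-fold in WTCM, 39 were protein coding and 45 were of the TEC class, loci that the annotation marks as not yet reviewed by experiment, whereas 147 of the 209 that rose by as much were protein coding. TEC loci made up 529 of the 14970 genes tested, with 48 called higher and 88 lower. Protein-coding genes gave 2243 higher and 1994 lower of 12122. With protein-coding genes alone in the fit 2140 were higher and 2320 lower, so the direction of this balance depended on the fit.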
